A study of Mus musculus with 11 samples.

Results

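The genes described are 9 markers of the endothelial cells that line the vessels of the choroid, Pecam1, Cdh5, Vwf, Plvap, Esam, Egfl7, Eng, Emcn and Cldn5. They were chosen by gene symbol, and all 9 were present among the 14602 genes of the deposited count table. The libraries came from retinal pigment epithelium (RPE) and choroid of C57BL/6J mice, a wildtype inbred strain. The 6 naïve control libraries were from age-matched mice that received no laser, and the 5 laser treated libraries were from mice given the 2RT nanosecond laser, a short-pulse laser aimed at the RPE, at 9 months of age. Tissue of both groups was collected at 12 months, 3 months after the laser. The labels do not say whether each library is 1 mouse, so the p-values measure only the spread between these libraries.

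The choroid is the vascular layer behind the RPE. Its innermost bed, the choriocapillaris, is a sheet of capillaries whose wall is pierced by fenestrae and which supplies the RPE and the photoreceptors. The neural retina has vessels of its own, whose endothelium is sealed by tight junctions. Endothelial cells of either bed share adhesion molecules at their junctions, a co-receptor for bone morphogenetic proteins, and secreted products such as von Willebrand factor.

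Every member was counted in all 11 libraries. Total counts were 25700881 to 36766020 in the naïve control libraries and 32094560 to 38755994 in the laser treated libraries. Summed over the 9 members, CPM (read counts scaled to a common library total) were 123.1, 265.5 and 326.1 as the lowest, median and highest naïve control value. The laser treated libraries 1 to 5 had sums of 205.9, 572.1, 319.3, 215.3 and 358.7 CPM. The tissue label was checked on 12 RPE genes, among them Rpe65 and Rlbp1 of the visual cycle, whose summed level was 80070 to 133900 CPM. The 9 endothelial markers were a small share of all reads, and in bulk tissue fewer endothelial cells and less RNA per endothelial cell cannot be told apart. A list of 12 neural retina genes, among them rhodopsin, summed to 7798 to 29480 CPM in naïve control and 5492 to 22050 CPM in laser treated libraries, so retinal tissue was present in each library, and which vessels gave the endothelial RNA was not tested.

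The RefSeq table of promoters (300 bases around a transcription start, most of them before it, build GRCm38.p6) held Cldn5, Eng, Emcn and Egfl7. Their promoters are shown because the other members had no entry, and not for the correlations of their levels given further on. Capitals mark AGGAAG or its reverse complement CTTCCT, a sequence with the GGAA core that transcription factors of the ETS family bind. For Egfl7, the first of 3 listed starts along the gene is shown.
Cldn5, chr16:18776597-18776896, plus strand: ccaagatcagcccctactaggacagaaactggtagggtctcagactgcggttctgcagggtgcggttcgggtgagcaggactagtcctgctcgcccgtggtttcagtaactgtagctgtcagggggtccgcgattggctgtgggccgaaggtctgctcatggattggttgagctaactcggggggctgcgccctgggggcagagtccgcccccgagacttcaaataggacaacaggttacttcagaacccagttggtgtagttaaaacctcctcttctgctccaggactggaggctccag
Eng, chr2:32646345-32646644, plus strand: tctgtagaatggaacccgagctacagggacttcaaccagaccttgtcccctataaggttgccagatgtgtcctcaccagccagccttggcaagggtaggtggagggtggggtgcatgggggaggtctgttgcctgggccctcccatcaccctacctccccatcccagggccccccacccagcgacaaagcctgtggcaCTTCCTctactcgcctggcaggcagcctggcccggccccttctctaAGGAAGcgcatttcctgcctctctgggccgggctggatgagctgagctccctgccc
Emcn, chr3:137340828-137341127, plus strand: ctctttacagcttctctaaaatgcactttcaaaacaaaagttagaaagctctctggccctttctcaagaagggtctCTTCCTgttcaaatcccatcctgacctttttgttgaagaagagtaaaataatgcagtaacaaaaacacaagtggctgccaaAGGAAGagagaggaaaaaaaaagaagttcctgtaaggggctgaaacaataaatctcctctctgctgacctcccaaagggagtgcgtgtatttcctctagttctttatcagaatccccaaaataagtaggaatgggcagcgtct
Egfl7, chr2:26580833-26581132, plus strand: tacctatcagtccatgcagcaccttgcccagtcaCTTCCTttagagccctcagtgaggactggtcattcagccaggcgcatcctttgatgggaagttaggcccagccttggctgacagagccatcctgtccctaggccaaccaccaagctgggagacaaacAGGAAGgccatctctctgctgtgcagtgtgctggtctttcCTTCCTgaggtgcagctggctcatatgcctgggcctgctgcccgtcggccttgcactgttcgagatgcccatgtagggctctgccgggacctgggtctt

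On both strands, AGGAAG occurred 3 times in this Egfl7 promoter, 2 times and 0 times in those of its other listed starts, 2 times in that of Eng, 2 times in that of Emcn and 0 times in that of Cldn5. Of the 27025 mouse promoters of the same length in the table, counting 1 per gene, 35.1% held at least 1 such match. The motif CGGAAG, searched likewise, had 0 matches in the 4 sequences and was held by 17.2% of all promoters. These matches are letters only, and no factor binding was measured.

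Levels differed widely among the members once they were scaled by length (CPM per kb of the longest annotated transcript, mean ± SD, n = 11). Plvap, which forms the diaphragm of endothelial fenestrae, had by far the highest level, 70.1 ± 32.4 CPM per kb. Egfl7 followed at 15.6 ± 5.38 CPM per kb, below Plvap in 11 of 11 libraries. Esam stood at 12.3 ± 5.66, Emcn at 11.6 ± 4.22 and Cldn5 at 10.3 ± 5.15 CPM per kb. These 3 genes, together with Egfl7 above and Eng below, formed a middle group. Egfl7 was above Esam in 10 of 11 libraries, with a within-library difference of 3.28 ± 2.49 CPM per kb (mean ± SD). Esam was above Emcn in 7, Emcn above Cldn5 in 8 and Cldn5 above Eng (7.21 ± 3.60 CPM per kb) in 8. Differences within a library were 0.692 ± 4.03 between Esam and Emcn, 1.32 ± 3.71 between Emcn and Cldn5 and 3.08 ± 4.57 CPM per kb between Cldn5 and Eng. In these 3 pairs of neighbours the mean difference was smaller than its SD over libraries, and the order of their means was not tested. Eng was above Pecam1 in 11 of 11 libraries, Pecam1 (2.16 ± 1.54) above Vwf, and Vwf (0.908 ± 0.528) above Cdh5 (0.302 ± 0.168 CPM per kb), each again in 11 of 11. The classical pan-endothelial adhesion genes Pecam1 and Cdh5 were thus at the low end. The longest transcripts range from 1416 bases (Cldn5) to 8834 bases (Vwf). The scale takes each transcript as covered over its whole length. The assembled transcripts described further on cannot show this, since stretches without one can still hold reads. In the median library they spanned 88% of the exon bases of Plvap and between 25% and 47.7% of those of Egfl7, Pecam1, Esam, Cdh5 and Eng. For Emcn the share was 13% and for Vwf 8.78%. These are shares of all annotated exon bases (5409 for Emcn, 16064 for Vwf) and not of the longest transcript.

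**Figure D1:**
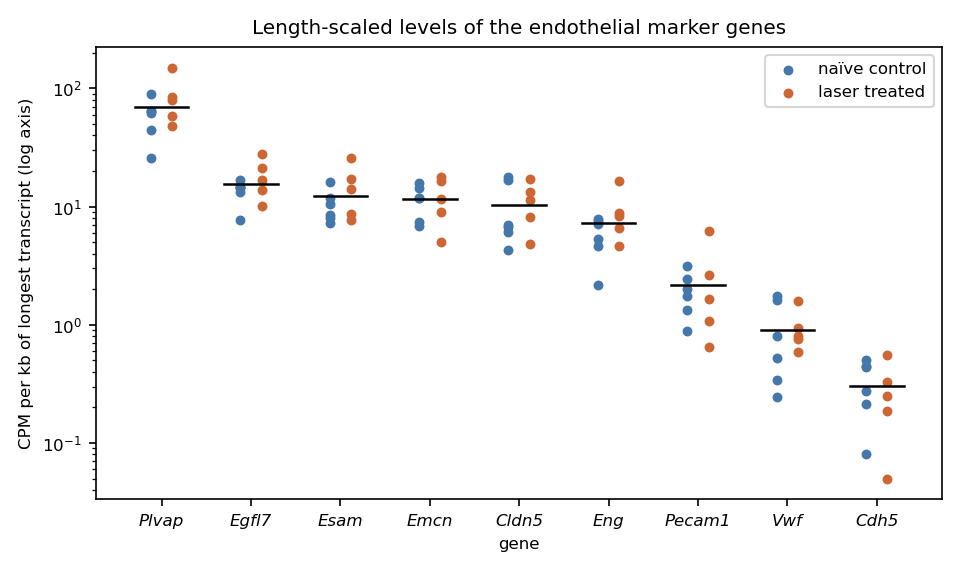
Level of each endothelial marker gene in CPM per kb of its longest transcript (log axis), 1 point per library, naïve control (n = 6) in blue and laser treated (n = 5) in orange, black lines being means over 11 libraries. Plvap lies above the other 8 genes in each library, and Cdh5 lies lowest, with a mean of 0.302 CPM per kb.

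The comparison of laser treated with naïve control libraries asks whether endothelial transcripts of the RPE/choroid differed 3 months after the laser. No member differed past an adjusted p of 0.05 in edgeR's quasi-likelihood test, where 0 of 14602 genes (0%) did. At an unadjusted p under 0.05 the count was 0 of 9 members, beside 2325 of all genes (15.9%), of which 8.24% of all genes were higher and 7.68% lower after the laser. DESeq2, run on the same counts, called 547 genes. None of these was 1 of the 5 members to which it gave an adjusted p, and it gave none to Pecam1, Cdh5, Vwf and Cldn5. The fitted log2 fold change was above 0 in 8 of 9 members, beside 48.5% of all genes, and the members' median was 0.34, beside -0.02 for all genes. In each of the 9 members the range of the laser treated libraries overlapped that of the controls, where 2.26% of all genes had groups that did not overlap.

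**Figure D2:**
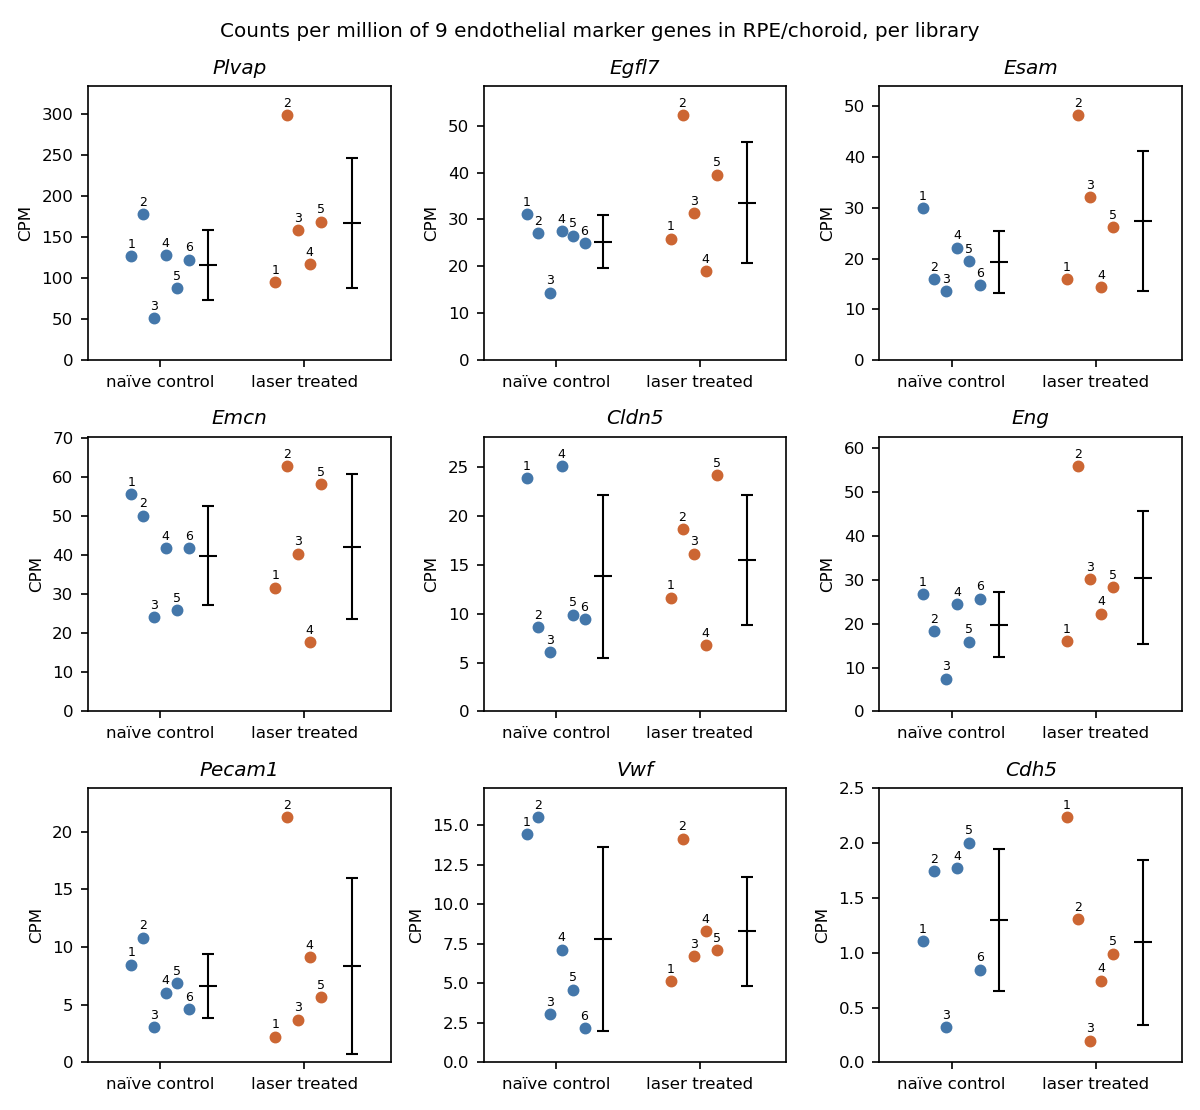
CPM of each endothelial marker gene in the 6 naïve control (blue) and 5 laser treated (orange) libraries, numbered by library, with the group mean and SD in black. The groups overlap in every panel, laser treated library 2 is the highest point for 6 of 9 genes, and naïve control library 3 is the lowest for 5.

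Of the genes at the luminal face of the fenestrated capillary, Plvap (chr8:71497765-71511752, minus strand) had 51.1, 125 and 178 CPM as the lowest, median and highest naïve control value. In the laser treated libraries 1 to 5 it had 95.03, 298, 158.5, 117 and 169 CPM. Library 2 of the laser group lay above all others, and 3 of 5 laser treated libraries were above the control median. The means were 116 ± 42.8 (SD, n = 6) and 167 ± 78.9 CPM (SD, n = 5). The log2 fold change of Plvap was 0.53 (SE 0.31, 95% interval -0.14 to 1.21, adjusted p = 0.442 in edgeR), and it was 0.22 without laser treated library 2. Emcn, the sialomucin endomucin of capillary and venous endothelium (chr3:137341067-137432185, plus strand), had naïve control values of 24.1, 41.7 and 55.6 CPM as lowest, median and highest. Its laser treated values were 31.7, 62.7, 40.4, 17.8 and 58.2 CPM, which included both the lowest and the highest of all 11 libraries. Group means of Emcn were 39.8 ± 12.7 (n = 6) and 42.2 ± 18.6 CPM (n = 5). The log2 fold change was 0.08 (SE 0.31, 95% interval -0.59 to 0.75, adjusted p = 0.934 in edgeR), and its sign turned when any of 4 single libraries was left out (naïve control 3 or 5, laser treated 2 or 5).

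Pecam1, Cdh5, Esam and Cldn5 encode proteins of the contacts between endothelial cells. Pecam1 (chr11:106654217-106750628, minus strand), an immunoglobulin-family adhesion molecule, had 3.04, 6.46 and 10.8 CPM as the lowest, median and highest naïve control value. In the laser treated libraries 1 to 5 its values were 2.23, 21.3, 3.71, 9.14 and 5.65 CPM. Library 2 again stood far above the rest, while library 1 of the same group was the lowest of all 11. The log2 fold change of Pecam1 was 0.34 (SE 0.52, 95% interval -0.78 to 1.46, adjusted p = 0.826 in edgeR) and -0.36 without laser treated library 2. Cdh5, the VE-cadherin of adherens junctions (chr8:104101625-104144511, plus strand), was the most weakly counted member, with 7 to 74 reads per library. Its lowest, median and highest naïve control values were 0.323, 1.42 and 2.01 CPM, and laser treated values were 2.23, 1.305, 0.200, 0.745 and 0.992 CPM. Both extremes of Cdh5, libraries 1 and 3, were in the laser group. Its log2 fold change was -0.25 (SE 0.76, 95% interval -1.87 to 1.38, adjusted p = 0.919 in edgeR), an interval too wide at this depth to show a change of either sign, and it was 0.02 without laser treated library 3.

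Esam (chr9:37528078-37538319, plus strand), an adhesion molecule of endothelial tight junctions, had naïve control values of 13.6, 17.7 and 29.9 CPM as lowest, median and highest. The laser treated libraries 1 to 5 gave 16.0, 48.1, 32.1, 14.4 and 26.1 CPM. Libraries 2 and 3 exceeded every control, and libraries 1 and 4 lay below the control median. The means of Esam were 19.3 ± 6.08 (n = 6) and 27.3 ± 13.7 CPM (n = 5), with a log2 fold change of 0.50 (SE 0.31, 95% interval -0.17 to 1.18, adjusted p = 0.472 in edgeR). Without laser treated library 2 it was 0.20. Cldn5, the claudin of sealed endothelial tight junctions and a marker of barrier vessels (chr16:18776847-18778262, plus strand), had 6.04, 9.68 and 25.05 CPM as the lowest, median and highest naïve control value. Laser treated libraries 1 to 5 had 11.6, 18.7, 16.1, 6.79 and 24.2 CPM. The controls of Cldn5 fell into a low set of 4 and a pair at 23.8 and 25.05 CPM (libraries 1 and 4), and 4 of 5 laser treated libraries were above the control median. The log2 fold change was 0.16 (SE 0.41, 95% interval -0.73 to 1.05, adjusted p = 0.902 in edgeR). It became -0.01 without naïve control library 3 and -0.06 without laser treated library 5.

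Eng encodes endoglin, a co-receptor through which endothelial cells respond to bone morphogenetic proteins (chr2:32646595-32682669, plus strand). It had naïve control values of 7.49, 21.4 and 26.7 CPM as lowest, median and highest. Laser treated libraries 1 to 5 had 16.0, 55.9, 30.2, 22.3 and 28.3 CPM. Of these, 4 of 5 were above the control median, and libraries 2, 3 and 5 were above the highest control.
The means of Eng were 19.8 ± 7.38 (n = 6) and 30.5 ± 15.2 CPM (n = 5). Its log2 fold change, 0.63, was the largest among the 9 members (SE 0.35, 95% interval -0.12 to 1.37, adjusted p = 0.403 in edgeR), and it was 0.29 without laser treated library 2.

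Egfl7 and Vwf encode proteins that endothelial cells secrete. Egfl7, an extracellular matrix-bound regulator of vessel formation (chr2:26580014-26593120, plus strand), had 14.4, 26.8 and 31.2 CPM as the lowest, median and highest naïve control value. The laser treated values were 25.9, 52.2, 31.4, 19.0 and 39.6 CPM. Among the controls, library 3 lay alone at 14.4 CPM and the other 5 between 25.0 and 31.2 CPM. The means were 25.3 ± 5.70 (n = 6) and 33.6 ± 12.8 CPM (n = 5), and the log2 fold change was 0.41 (SE 0.26, 95% interval -0.14 to 0.96, adjusted p = 0.474 in edgeR), or 0.20 without laser treated library 2. Vwf, von Willebrand factor, which binds platelets (chr6:125546774-125686679, plus strand), had naïve control values of 2.15, 5.87 and 15.5 CPM as lowest, median and highest. Its laser treated values were 5.15, 14.2, 6.74, 8.28 and 7.09 CPM. The 2 highest values of Vwf were in naïve control libraries 1 and 2 and the lowest in library 6, so the control group spanned the whole range. The log2 fold change was 0.09 (SE 0.50, 95% interval -0.99 to 1.17, adjusted p = 0.959 in edgeR), and it fell below 0 when any of 4 single libraries was left out (naïve control 3, 5 or 6, laser treated 2).

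**Figure D3:**
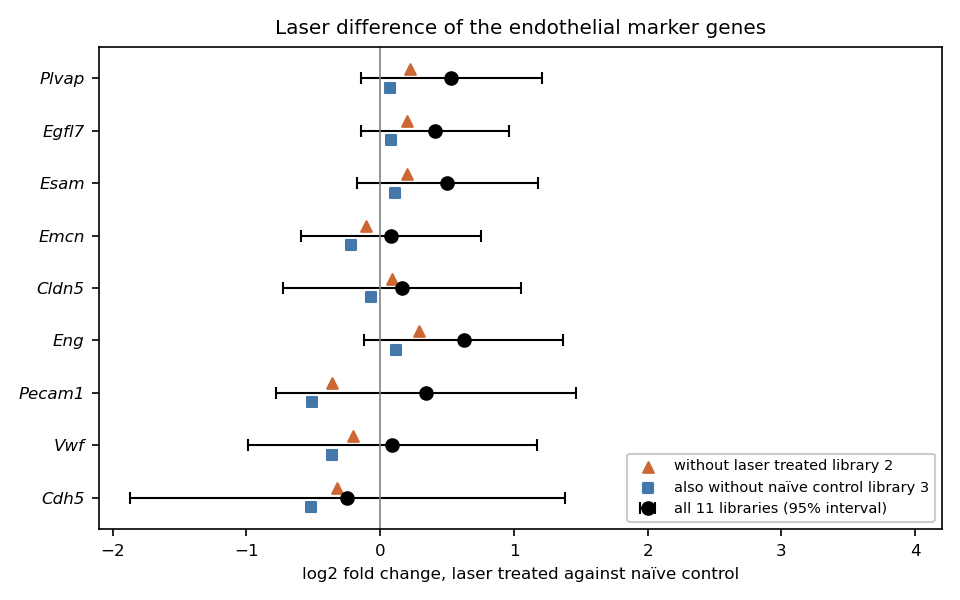
Log2 fold change of each endothelial marker gene in edgeR (positive where laser treated libraries were higher), with its 95% interval over all 11 libraries (black), without laser treated library 2 (orange triangles) and without that library and naïve control library 3 (blue squares). Every interval spans 0, the values lie between -0.25 and 0.63, and the triangles lie to the left of the circles for all 9 genes.

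Laser treated library 2 had the highest level of 6 of 9 members, and naïve control library 3 had the lowest level of 5 and one of the lowest 2 of all 9. Without laser treated library 2, the log2 fold change was above 0 in 5 of 9 members and the median was 0.09. Without naïve control library 3 the median was 0.17, and without both libraries it was -0.07, with 4 of 9 members above 0. Other measures also stood apart in naïve control library 3. Its neural retina sum, 29480 CPM, was the highest of all libraries, and its fibroblast sum, 96.8 CPM over 10 genes, the lowest. Of the lists described further on, its macrophage (315.5 CPM), melanocyte (1544 CPM), Schwann cell (407.4 CPM) and barrier endothelium sums (1235 CPM) were also the lowest. Its arterial sum (83.23 CPM) was the highest, and its pericyte and smooth muscle sum (643.8 CPM) lay within the range of the other libraries. Laser treated library 2 had a neural retina sum of 6765 CPM and a fibroblast sum of 458.8 CPM, both within the range of the other libraries, and the largest total count. Its macrophage (1023 CPM) and barrier endothelium sums (2633 CPM) were the highest of all libraries. Naïve control library 1, with the second highest neural retina sum (24410 CPM), had a member sum of 318.3 CPM, near the top of its group. Over the neural retina list as a whole, 10 of 12 genes had a lower fitted level after the laser. Of them, 1 passed an unadjusted p of 0.05, where 7.68% of all genes passed it and were lower. It was Pdc, phosducin of photoreceptors (log2 fold change -1.33, SE 0.56, adjusted p = 0.277 in edgeR). The part of retinal tissue in the members' values was not tested.

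A line in the header of each deposited transcript file carries a label, R1 or R2, whose meaning is not given in the sources used here. Of the 11 libraries, 5 were R1 (3 naïve control, 2 laser treated) and 6 were R2 (3 and 3). In R1 the mean log2 CPM was higher in laser treated libraries for 8 of 9 members, and in R2 for 6 of 9. Plvap, Esam, Egfl7, Eng and Cldn5 were the 5 members higher in both. The difference for Eng was 0.95 in R1 and 0.31 in R2, and for Plvap 0.68 and 0.39. Cdh5 differed in sign between the labels, 0.93 in R1 and -1.32 in R2, on the low counts given above. Both libraries that stood apart were R1.

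The members varied together from library to library. Over the 36 pairs of members, the median Pearson correlation of log2 CPM was 0.58 (range -0.05 to 0.91, n = 11 libraries), and 35 of 36 were above 0. The 28 pairs without Cdh5 had a median of 0.68, and the 8 pairs with Cdh5, the member with the fewest reads, 0.20. The closest pair was Plvap and Eng (r = 0.91, Spearman's rho = 0.77), followed by Plvap and Egfl7 (r = 0.87, rho = 0.82) and by Esam and Egfl7 (r = 0.86, rho = 0.95). Among the 4 genes whose promoters are printed above, r was 0.86 for Egfl7 and Eng, 0.82 for Egfl7 and Emcn, 0.77 for Egfl7 and Cldn5, 0.75 for Emcn and Cldn5, 0.66 for Eng and Cldn5 and 0.64 for Eng and Emcn. When naïve control library 3 and laser treated library 2, the libraries with the lowest and highest mean z-score of the members, were left out, the median over 36 pairs was 0.30 (range -0.75 to 0.82, n = 9), a fall to which leaving out both ends of the shared score contributes by construction. Esam and Cldn5 (0.82), Egfl7 and Emcn (0.82) and Egfl7 and Cldn5 (0.78) stayed close over the 9 libraries, whereas Plvap and Eng were at 0.60. All genes of a library share its dissection, amplification and depth, and these correlations are descriptions without a test.

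**Figure D4:**
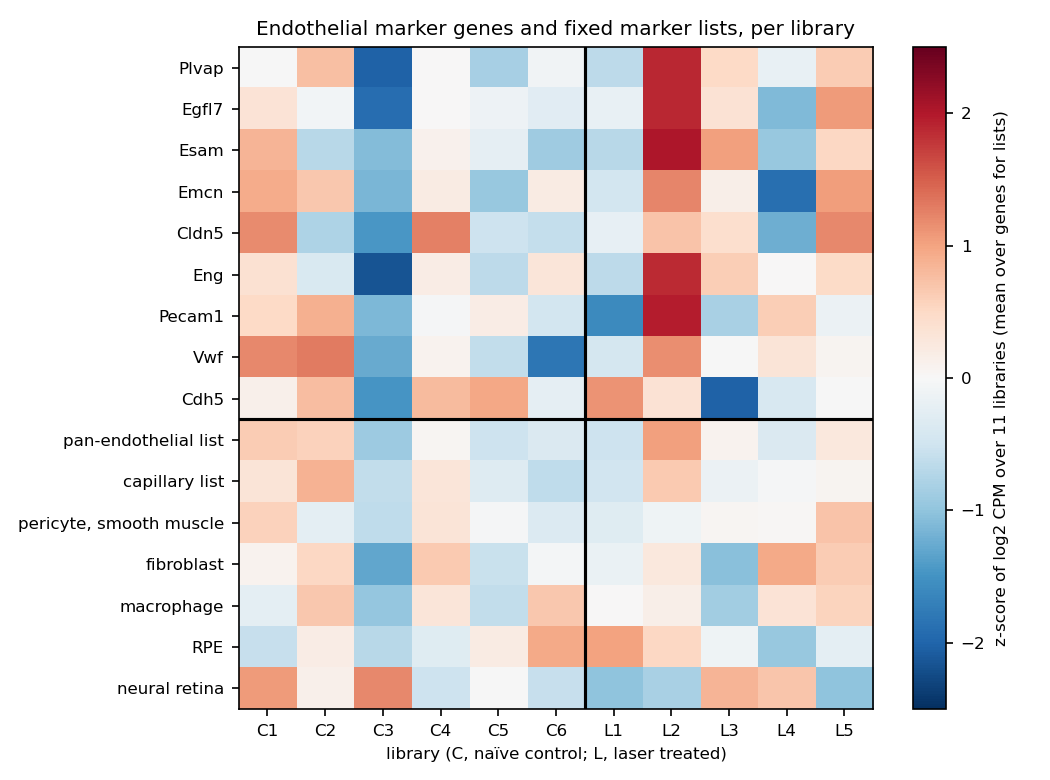
z-score of log2 CPM over 11 libraries for each endothelial marker gene (upper rows) and mean z-score over the genes of 7 fixed lists (lower rows), naïve control libraries C1 to C6 left of the vertical line and laser treated libraries L1 to L5 right of it. Members are lowest together in C3 (mean z-score -1.52) and highest together in L2 (1.45), and the pan-endothelial list has the same extremes, -0.90 and 1.02.

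The 10 other genes whose log2 CPM followed the members' mean z-score most closely were Klf2, Acvrl1, Zfp93, Tgm2, Tbxa2r, Tmem204, Ppap2a, Slfn5, Icam2 and Slc9a3r2, with Pearson correlations of 0.87 to 0.92 (n = 11). Klf2 (r = 0.92) is the transcription factor by which endothelium answers to blood flow, Acvrl1 (r = 0.92) the kinase receptor that pairs with endoglin, and Icam2 (r = 0.87) an endothelial adhesion molecule. Over the 9 libraries without the far ones, Icam2 stood at 0.94, Klf2 at 0.82, Acvrl1 at 0.69 and Slc9a3r2 at 0.54. Ppap2a was at 0.90, Zfp93 at 0.89, Slfn5 at 0.87, Tgm2 at 0.84, Tmem204 at 0.78 and Tbxa2r at 0.72. Acvrl1 ranged from 1.91 to 9.77 CPM in naïve control and from 4.67 to 20.8 CPM in laser treated libraries, with a log2 fold change of 0.60 (SE 0.45, adjusted p = 0.576 in edgeR). Klf2 had 9.43 to 34.8 and 16.1 to 44.8 CPM and a log2 fold change of 0.45 (SE 0.33, adjusted p = 0.563).

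A wider list of 38 pan-endothelial genes, of which 33 were measured, gave the same picture of shared variation. All 33 had a correlation above 0 with the members' mean z-score (48.0% of all other genes did), and the list's own mean z-score followed it at r = 0.94 (0.90 over 9 libraries). A capillary list was at 0.78 (0.70 over 9 libraries), pericyte and smooth muscle genes at 0.59 (0.77) and red cell genes at 0.46 (0.73). Fibroblast genes were at 0.51 (0.20 over 9 libraries), RPE genes at 0.18 (-0.40) and neural retina genes at -0.41 (0.12). Over 9 libraries, pericyte and red cell genes thus followed the members at least as closely as the capillary list. After the laser, 20 of 33 pan-endothelial genes had a fitted level above that of the controls and 13 below, with a median log2 fold change of 0.13. None passed an adjusted p of 0.05. An unadjusted p of 0.05 was passed by 2 of 33, both higher, where 8.24% of all genes passed it and were higher. Rasip1, a Ras-interacting protein needed for vessel lumens, had a log2 fold change of 1.15 (SE 0.39, adjusted p = 0.207 in edgeR), with laser treated values from 4.44 to 32.1 CPM around control values of 4.78 to 8.28 CPM. Gata2, an endothelial and blood-cell transcription factor, was at 1.04 (SE 0.38, adjusted p = 0.218), with 1.98 to 4.00 against 3.75 to 8.53 CPM. Lmo2, a partner of that factor, was at -0.65 (SE 0.31, adjusted p = 0.333).

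Lists for single vessel types gave no adjusted call in edgeR. Of all genes, 15.9% passed an unadjusted p of 0.05. Of 10 measured capillary genes, 0 passed an unadjusted p of 0.05 and the median log2 fold change was 0.17, with Gpihbp1 at -0.98, Aqp1 at 0.33 and Esm1 at 0.52. Among 9 arterial genes, 1 passed it and was higher, Notch1 (log2 fold change 0.85, SE 0.30, adjusted p = 0.214 in edgeR). Its ligand Jag1 was the 1 that passed it and was lower (-0.58, SE 0.24, adjusted p = 0.258). Dll4, another ligand, at 2.48 had an SE of 1.26. The 5 measured venous genes, which include Vwf, had a median of 0.02, with Vcam1 at -0.14 and Nr2f2 at -0.03. All 5 lymphatic genes were fitted below the controls, with Prox1 at -1.37 (SE 1.47), Reln at -0.70 and Flt4 at -0.22, and 0 passed an unadjusted p of 0.05.

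Cldn5 belongs to a list of 12 genes of barrier endothelium, of which 10 were fitted above the controls, with a median log2 fold change of 0.26. In that list 3 of 12 genes passed an unadjusted p of 0.05, all higher, where 8.24% of all genes passed it and were higher. An adjusted p of 0.05 was passed by 0.
Slc2a1, the glucose transporter GLUT1, had 500.3 to 846 CPM in naïve control and 944 to 1262 CPM in laser treated libraries, and Slc7a5, an amino acid transporter, 53.5 to 88.8 and 89.3 to 144 CPM. In neither gene did the groups overlap, which held for 2.26% of all genes. Both genes were named for being among the 3 smallest p of their list, a choice that favours such separation. Their log2 fold changes were 0.58 (SE 0.14) and 0.72 (SE 0.17), both at an adjusted p of 0.172 in edgeR. Mfsd2a, a lipid transporter, was at 0.47 (SE 0.17, adjusted p = 0.219). The RPE carries GLUT1 as well, and across libraries the list's mean z-score without Cldn5 had a correlation with that of the 9 members of 0.11 (-0.67 over 9 libraries).

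Eng belongs to a list of endoglin and bone morphogenetic protein signalling genes, 16 of 20 of them measured, whose median log2 fold change was 0.05. Here 4 of 16 genes passed an unadjusted p of 0.05, all lower, where 7.68% of all genes passed it and were lower. An adjusted p of 0.05 was passed by 0. Bmpr2, the type II receptor of this pathway, was at -2.39 (SE 0.78, adjusted p = 0.194 in edgeR) on low levels of 0.601 to 4.72 against 0.0601 to 0.802 CPM. Acvr2a, another type II receptor, had 11.4 to 19.3 CPM in naïve control and 1.79 to 11.1 CPM in laser treated libraries (log2 fold change -1.0, SE 0.37, adjusted p = 0.225). These groups did not overlap, which held for 2.26% of all genes, but Acvr2a too was named for a small p, a choice that favours this. The target gene Id2 was at -0.54 (SE 0.21, adjusted p = 0.241). Of 14 measured junction partners of the cadherins and claudins, 1 passed an unadjusted p of 0.05, where 15.9% of all genes did. It was Ctnna1, the catenin that links cadherins to actin (log2 fold change 0.32, SE 0.13, adjusted p = 0.249). The median of the list was 0.01, with Jam2 at -0.64 and Mllt4 at -0.41.

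Cells that share the vessel wall or its contents were checked by lists of their own, beside 15.9% of all genes past an unadjusted p of 0.05. Of 15 pericyte and smooth muscle genes 0 passed an unadjusted p of 0.05 (median 0.18, Abcc9 at -2.30, Acta2 at 0.25, Des at 0.88), as did 0 of 10 fibroblast genes (median 0.40, Col1a2 at 0.56, Fbln1 at 1.10, Pdgfra at 0.78) and 0 of 10 macrophage genes (median 0.01, Csf1r at 0.28, C1qc at -0.34, Cx3cr1 at 0.73). Platelets carry von Willebrand factor too. Of 5 measured platelet genes 0 passed, with Itga2b at 0.94 and Pf4 at -0.51, and their sum was 4.91 to 9.86 CPM in naïve control and 6.88 to 15.7 CPM in laser treated libraries. Haemoglobin and other red cell genes, which show how much blood stayed in the tissue, summed to 48.1 to 326 CPM in naïve control and 37.2 to 159 CPM in laser treated libraries, with Hbb-b1 at -1.34 (SE 0.52, adjusted p = 0.241 in edgeR), Hba-a1 at -0.86 and Hba-a2 at -0.96. All 4 measured red cell genes were fitted below the controls. Of them, 1 (Hbb-b1) passed an unadjusted p of 0.05, where 7.68% of all genes passed it and were lower. The part of blood in the Vwf values was not tested.

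Of the remaining lists, 7 measured Schwann cell genes had a median log2 fold change of 1.19. An unadjusted p of 0.05 was passed by 5, all higher, where 8.24% of all genes passed it and were higher. The 5 were led by Cnp (1.19, SE 0.27, adjusted p = 0.172 in edgeR), Sox10 (0.62, SE 0.16, adjusted p = 0.172), also on the melanocyte list, and Mbp (2.22, SE 0.74, adjusted p = 0.208). Kit (0.32) and Tyr (-0.16) of the melanocytes, Slc16a8 (0.50), Stra6 (0.53) and Mitf (-0.49) of the RPE, and Pde6g (-0.74) of the neural retina had no adjusted p under 0.05. Past an unadjusted p of 0.05 in edgeR, 2 of 12 RPE genes were higher (Slc16a8 and Stra6) and 1 lower (Mitf). Of 9 melanocyte genes 1 passed it, Sox10, which was higher. Of all genes 8.24% passed it and were higher, and 7.68% lower.

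The transcripts that the authors assembled in each library show which parts of the members were covered. Each assembled transcript had a single exon, so a gene with several exons appears as separate pieces. Apart from Cldn5, Plvap had the largest share of its exon bases in pieces, 83.8% to 88.1%. In 11 of 11 libraries it had pieces on 3 of its 6 exon blocks (1, 3 and 6, counted from the 5′ end). The coverage of its last block, chr8:71497765-71498405, was 139 in naïve control library 3, 305 in the median library and 658 in laser treated library 2. The same 2 libraries were at the ends in all 3 blocks, and this coverage comes from the same reads as the gene counts. Eng had pieces on blocks 1, 12 and 14 of 14 in every library, with 3.89 on its first block in naïve control library 3 and 34.5 in laser treated library 2.

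Cldn5, which has a single exon, was listed in 11 of 11 libraries as the reference transcript, so its extent and its start were taken from the annotation and not from the reads. Its coverage ranged from 19.3 in naïve control library 3 to 86.0. Cdh5 had pieces in 8 of 11 libraries, none in laser treated library 2 or naïve control libraries 3 and 6, and most often on its last exon block (chr8:104142481-104144511). Pieces of Vwf spanned 1.97% to 18% of its exon bases, and only the last of 56 blocks had one in every library. Pecam1 likewise had its last block of 17 in every library, and Emcn its last of 12. TPM (transcript abundance scaled by length and library) summed over a member's pieces followed its CPM across libraries at r = 0.94 to 0.99 for Pecam1, Vwf, Plvap, Eng, Emcn and Cldn5, at 0.80 for Esam, 0.33 for Cdh5 and 0.18 for Egfl7.

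Egfl7 hosts the microRNA Mir126a, which is enriched in endothelium. The hairpin (chr2:26591357-26591429, plus strand, GRCm38.p6) lies within the last of 11 exon blocks of Egfl7, inside an exon that the GENCODE annotation gives only to a transcript with a retained intron. Its mature product is shown because the hairpin was the one stretch of Egfl7 that the transcript files took over from the reference annotation, with the seed (bases 2 to 8) in capitals.
mmu-miR-126a-3p: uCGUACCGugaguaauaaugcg
In 7 of 11 libraries the transcript files held a piece of exactly these 73 bases, carried over from the reference annotation. Its coverage was 61.0 in laser treated library 2, 9.48 in laser treated library 1, 11.4 in naïve control library 5 and under 1 in the other 4. In laser treated library 2, which had the highest Egfl7 count (1919 reads), there was no piece on the final stretch of the gene, the last 1200 bases, where each of the other 10 libraries had one. These reads are from pre-amplified messenger RNA, so they measure the host transcript and not the mature microRNA, which was not measured.

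The count table could have shared some reads between genes. Egfl7 and Agpat2 overlap by 64 exon bases and Eng and Fpgs by 61, in each case on opposite strands, and the library kit does not mark strand, so reads there cannot be told apart by strand. These bases are a small part of the 3581 and 4048 exon bases of Egfl7 and Eng. The other 7 members shared no exon bases with another gene of the count table. With genes absent from that table, Egfl7 shared 264 exon bases on the same strand (Gm20532), 73 on the same strand (Mir126a) and 58 on the opposite strand (Mir126b). How reads there were counted was not tested.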

How the data were processed

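RNA of RPE/choroid was pre-amplified with a SmartSeq v4 kit and made into NexteraXT libraries. The authors deposited raw counts of reads per gene for 14602 genes in 11 libraries, not normalized or pooled. The submitters' processing notes name bcl2fastq 2.18.0.12, Trim Galore, STAR 2.5.3a, featureCounts 1.5.3, StringTie 1.3.3, edgeR 3.22.3 and the mouse builds mm10 and GRCm38, without giving their roles. The same table holds the authors' own fold changes, p-values and FDR of laser treated against naïve control libraries, which were not used. Per library, the authors deposited transcripts assembled by StringTie with coverage and TPM.

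Counts were tested with edgeR 4.0.16 in R 4.3.3 on all genes, scaled by TMM. The filterByExpr step left out 0 genes, the quasi-likelihood fit was robust, and p-values were adjusted over all genes by Benjamini-Hochberg, with a threshold of 0.05. Intervals (95%) used edgeR's degrees of freedom. The common biological coefficient of variation was 0.58, which with 6 and 5 libraries sets the precision. CPM used TMM-scaled totals, and log2 CPM a prior count of 2. Positions and lengths came from GENCODE M21 (GRCm38), in which 97.6% of genes were found. TPM were summed per gene over assembled transcripts with at least 50% of their bases in its exons. Sequences are from RefSeq (GRCm38.p6). The members and the 18 gene lists were chosen with earlier results of these data known. Genes named are the members, the 3 genes with the smallest p in each other list, any gene a result turned on, and the 10 genes most correlated with the members; some genes under this rule are not reported here. Libraries of 1 group held at most 1.67% identical counts with any other and were taken as separate samples.

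Alternatives were DESeq2 1.42.0, limma 3.58.1 (voom with quality weights, and limma-trend on log2 TPM plus 1 or 0.1), upper quartile normalization, no robust estimation, no filter, a minimum of 10 counts in every library, the replicate number as a block, the R1 or R2 label as a term, removal of a loess GC trend (span 0.3), and each library left out. Leaving out naïve control library 3 with laser treated library 2, and the block with GC removal, were added after the data were seen. Summaries were made in Python 3.11.15 (numpy 2.4.6, pandas 2.3.3, scipy 1.17.1). The scripts were tested on simulated data.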

Additional observations from a re-analysis of the deposited data

Results flagged for a closer look

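Of 20 groups of values tested for a library far from the rest, each a member's CPM or the summed members in 1 treatment group, 1 held such a library, where chance gives about 5%. It was Egfl7 in the naïve control group, where library 3 had 14.44 CPM and the other 5 libraries had 24.96 to 31.17 CPM, so that the gap to the nearest was 0.629 of the group's range. The same library was the lowest of all 11 for Plvap, Esam, Eng and Cldn5 as well.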

How the results depend on the processing

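Genes past an adjusted p of 0.05 numbered 0 in the reported fit and 547 with DESeq2, 1 with voom (8430410K20Rik), 2 with a minimum of 10 counts (8430410K20Rik and Pamr1), 2 with TPM at either pseudocount (Map2k1 and Pamr1) and 3 without naïve control library 3 and laser treated library 2 (8430410K20Rik, Kif5a and Pamr1). With single libraries left out it was 0 to 4, the 4 being without laser treated library 2 (8430410K20Rik, Gpr37l1, Kif5a and Pamr1). No endothelial marker with an adjusted p was among the calls of any of these 24 alternatives, but DESeq2 gave no adjusted p to Pecam1, Cdh5, Vwf and Cldn5. At an unadjusted p under 0.05 the number of endothelial markers was 0 as reported, 1 with TPM at either pseudocount (Esam, log2 fold change 1.09 and 1.13) and 0 to 2 with single libraries left out (Plvap without naïve control 2, Plvap and Eng without laser treated 1, Egfl7 without laser treated 4). Their median log2 fold change ranged from 0.09 to 0.49 with single libraries left out, the lowest being without laser treated library 2, was 0.29 with the GC trend removed, and turned to -0.07 without naïve control library 3 and laser treated library 2, where Pecam1 was at -0.51, Vwf at -0.36, Emcn at -0.22 and Cldn5 at -0.07. Signs also turned with the GC trend removed for Vwf (-0.13) and Cldn5 (-0.04), with voom for Pecam1 (-0.20) and with TPM plus 0.1 for Cdh5 (0.16). With single libraries left out, Pecam1 ranged from -0.36 to 0.58, Cdh5 from -0.68 to 0.02, Vwf from -0.20 to 0.40, Emcn from -0.11 to 0.26 and Cldn5 from -0.06 to 0.41, while Plvap, Esam, Egfl7 and Eng stayed above 0 in all 24 alternatives. They fell to 0.07, 0.11, 0.08 and 0.12 without naïve control library 3 and laser treated library 2, and to 0.29, 0.38, 0.21 and 0.42 with the GC trend removed. With that removal Emcn, the member with the lowest GC content (40.7%), rose from 0.08 to 0.43, and Pecam1 went from 0.34 to 0.37. The members' GC content (median 56.5%, 49.9% for all genes) differs from that of other genes. The cause of these changes was not tested.

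With the replicate number as a replicate block, the members' median was 0.23, 0 genes were called, and Pecam1 turned to -0.03; with the block and the GC trend removed together, Pecam1 was at -0.02 and Vwf at -0.13. Deviations of same-numbered libraries correlated at -0.009, 0.115, 0.280, -0.009 and -0.008, so the numbers were not taken as pairs. Cdh5 could not be fitted with a minimum of 10 counts, since it had 7 reads in 1 library, and its counts limit what could be detected.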
